A study of Homo sapiens with 9 samples.

Results

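Long intergenic non-coding RNAs were followed in A549, an established line of human lung adenocarcinoma cells, after exposure to vesicles shed by dying cells. The genes described here are those whose Ensembl ID maps to a symbol made of LINC and 5 digits and that had at least 90 reads summed over the 9 libraries. The deposited data held 62257 rows, and such a symbol was found for 2271 of them. Of these, 1062 had no read in any library, 997 had 1 to 89 reads and 212 met the minimum. They were thus chosen by their symbol and by their read count summed over all groups, so that they are expressed is not a finding. LINC01133 (90 reads) and LINC00592 (91 reads) lay just inside the minimum, and LINC00628, LINC01145 and LINC01816 (88 reads each) lay just outside it. For 27 of the 212 genes the sum would have missed the minimum if all groups had stood at the level of their lowest group. These passed only through the groups where they are high, so their size and rank among the differences are partly fixed by the rule. They include LINC01619, LINC00324, LINC00488, LINC02454, LINC01508, LINC02043, LINC01424, LINC01133, LINC01085 and LINC00115, whose values below are descriptions.

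There were 3 groups of 3 libraries, all of A549 cells in the same serum-containing medium with an exposure of 96 h. STS_apoEV cells received apoptotic extracellular vesicles (apoEVs, membrane-bound particles released by dying cells) from apoptosis induced with staurosporine, a broad protein kinase inhibitor. DDP_apoEV cells received apoEVs from apoptosis induced with cisplatin, a platinum drug that crosslinks DNA. Control cells received phosphate-buffered saline, per the labels' protocols. The labels do not name the cells that shed the vesicles, no drug-only group was analysed, and all results are from a single line. Whether libraries of a group are separate cultures is not stated either, so a p-value reflects the spread among these 9 samples alone, and that spread may be technical.

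Long intergenic non-coding RNAs are transcribed by RNA polymerase II from stretches between protein-coding genes, and most are spliced and polyadenylated like messenger RNAs without coding for a known protein. Some act at their own locus on the genes beside them, others act elsewhere in the nucleus or bind microRNAs and proteins in the cytoplasm, and most have no assigned function. A number after LINC is the name given to such a gene when no function is known to name it by. Their levels tend to be low and restricted to particular cell types, and several have been studied as tumour markers in lung adenocarcinoma.

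The libraries held 13799950 to 14816996 reads with STS_apoEV, 15949255 to 16526399 with DDP_apoEV and 14356195 to 15492993 in control. The 212 LINC genes took 0.12% to 0.127% of the reads with STS_apoEV, 0.115% to 0.118% with DDP_apoEV and 0.121% to 0.128% in control. The 5 epithelial markers KRT8, KRT18, KRT19, EPCAM and CDH1 were all present and summed to 6637 to 7980 CPM (counts scaled to library size) with STS_apoEV, 5650 to 6146 CPM with DDP_apoEV and 10088 to 11022 CPM in control, so this sum, almost all KRT8 and KRT18, was lower with both vesicle types. KRT19 alone had 132 to 163 CPM with STS_apoEV, 83.7 to 105 CPM with DDP_apoEV and 99.1 to 122 CPM in control. The 4 endothelial markers summed to 2.49 to 4.32, 1.15 to 1.38 and 1.32 to 1.74 CPM in the same order of groups, the 4 macrophage markers to 14.2 to 19.8, 10.8 to 11.7 and 8.33 to 12.1 CPM (CD163 at 0), and the 6 fibroblast markers to 3.66 to 3.99, 3.09 to 3.57 and 2.93 to 3.55 CPM. The macrophage sum was almost all CD14, with 14.0 to 19.7, 10.6 to 11.5 and 8.09 to 11.4 CPM. Of the endothelial markers, PECAM1 had 1.94 to 3.37, 0.251 to 0.679 and 0.0645 to 0.279 CPM. CDH5 did not follow it, with 0.54 to 1.74, 0.555 to 1.003 and 1.04 to 1.48 CPM. The 5 lymphocyte markers (CD2 and MS4A1 at 0) and the 3 erythroid markers (HBA2 at 0) summed to at most 0.424 and 0.185 CPM in any library. Their part in the results was not tested. In such bulk samples, fewer cells of a type and less RNA per cell cannot be told apart.

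In the GENCODE v29 annotation 164 of the 212 genes are typed as lincRNA, 18 as processed transcripts, 15 as antisense and 7 as transcribed unprocessed pseudogenes, with 8 of other types or not in that release. LINC02693 and LINC03040 are listed there as protein-coding. The genes lay on 23 chromosomes, with 23 on chromosome 1 and 21 on chromosome 2. The median exonic length was 3468 bases (246 to 33198), the median number of exons in the longest-spliced transcript was 4, and 20 of 211 genes had a single exon. At least 50% of the longest transcript of 10 genes matched a transcript of another gene at 95% identity or more, so their reads could be shared with that copy. These were LINC00265, LINC00342, LINC00674, LINC00869, LINC01106, LINC01123, LINC01409, LINC01881, LINC02637 and LINC02966, and their values are uncertain. Of all 212 genes 130 overlapped another annotated gene on either strand, and no label says whether strand was kept, so reads of the overlapping parts cannot be told apart.

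Per length, the LINC genes were low. Their mean level over the 9 libraries had a median of 0.779 FPKM (fragments per kilobase and library depth, as deposited), with 95 genes at 1 FPKM or more and 65 below 0.5 FPKM, against a median of 4.19 FPKM over 12808 tested protein-coding genes. LINC02582, on chromosome 18, was the highest with 27.9 ± 1.93 FPKM with STS_apoEV, 24.8 ± 3.12 FPKM with DDP_apoEV and 28.2 ± 1.98 FPKM in control (SD, n = 3 each). Its level did not differ detectably between the groups (log2 fold change 0.00, SE 0.09, adjusted p = 0.995 for STS_apoEV against control, and log2 fold change −0.19, SE 0.09, adjusted p = 0.152 for DDP_apoEV against control). LINC02864, which lies nearby on the other strand, took almost as many reads, with 74.6, 63.3 and 74.8 CPM with STS_apoEV, 58.1, 64.3 and 64.99 CPM with DDP_apoEV and 69.4, 72.5 and 75.2 CPM in control. Neither passed the test in any comparison, and together they held 11.2% of all reads of the 212 genes. Their nearest coding gene, NETO1, was too low to be tested.

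The 10 highest genes made up 28.9% of the summed FPKM. After LINC02582 came LINC00973 (13.8 FPKM), LINC02313 (10.1), LINC01963 (8.25), LINC00106 (7.66), LINC01836 (7.15), LINC02864 (7.12), LINC02643 (6.82), LINC02506 (6.71) and LINC01474 (6.56). Several of these high genes differed between groups. LINC00973 was higher with both vesicle types, LINC01836 lower with both, and LINC02643 lower with STS_apoEV, as given below. LINC01474 had 13.2, 13.6 and 11.1 CPM with STS_apoEV, 4.56, 5.18 and 6.23 CPM with DDP_apoEV and 6.83, 8.34 and 6.802 CPM in control, so that all STS_apoEV libraries lay above all others (log2 fold change 0.78, SE 0.17, adjusted p = 4.04e-04 against control, and log2 fold change 1.24, SE 0.17, adjusted p = 4.63e-07 against DDP_apoEV). LINC02506 was higher with STS_apoEV than in control (log2 fold change 0.57, SE 0.13, adjusted p = 6.88e-04), LINC02313 was lower with DDP_apoEV (log2 fold change −0.82, SE 0.20, adjusted p = 0.00445), and LINC01963 was lower with STS_apoEV (log2 fold change −0.32, SE 0.12, adjusted p = 0.0399). LINC00106 passed no test (adjusted p = 0.1196 for STS_apoEV and 0.544 for DDP_apoEV against control).

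**Figure D1:**
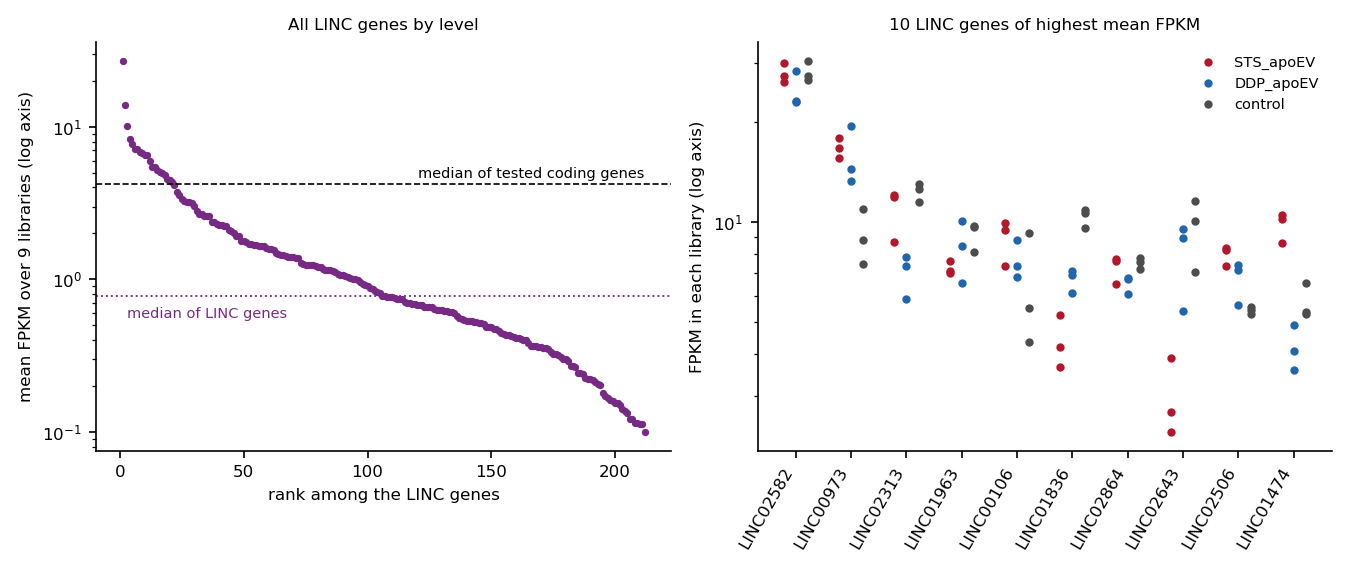
Left, mean FPKM over the 9 libraries of each of the 212 LINC genes against its rank, on a log axis, with dashed and dotted lines at the medians of tested coding genes (4.19 FPKM) and of the LINC genes (0.779 FPKM). Right, FPKM in each library (points, log axis) of the 10 genes of highest mean FPKM, with STS_apoEV, DDP_apoEV and control side by side: LINC02582 stood at about the same level in all groups, while LINC02643 was low with STS_apoEV.

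The first comparison set cells given vesicles of staurosporine-induced apoptosis against control cells. Of the genes whose place did not hang on the read minimum, LINC01730 and LINC01091 had the largest rises and LINC01559 and LINC00842 the largest falls among those named, while LINC02864 and LINC02582, the genes with most reads, did not pass. Of the 212 LINC genes 66 (31.1%) passed the test against control (edgeR quasi-likelihood test, Benjamini-Hochberg adjusted p under 0.05), 30 higher and 36 lower, and 146 did not pass. Of the 66, 7 were among the 27 genes that hung on the minimum. The share was close to the 32.8% of all 16947 tested genes called in this comparison (15.9% higher and 16.8% lower). Among 1878 protein-coding genes of similar read number, those within the middle 50% of the LINC genes' mean log2 CPM, 26.3% were called (16.3% higher and 9.96% lower). A change of at least 2-fold was seen in 38 of the LINC genes (15 higher and 23 lower), 17.9% of them against 6.67% of all genes. All 7 called genes that hung on the minimum were among these 38, so this share is partly fixed by the rule. Called LINC genes with fewest reads also had larger changes than those with most (median absolute log2 fold change 1.32 against 0.77). No 2-fold share was computed for coding genes of similar read number, described above. The median log2 fold change over the LINC genes was −0.01, against 0.01 over all tested genes and 0.11 over those coding genes. The 3 and 3 libraries did not overlap for 90 LINC genes (42.5%), against 43.3% of all genes. Limma called 42 LINC genes on log2(FPKM + 1) and 42 on log2(FPKM + 0.1), and the cause of the lower counts was not tested. On log2(FPKM + 1), a scale that compresses low genes, the rises of LINC02454, LINC01091, LINC01094 and LINC01341 (0.18 to 0.23) and the falls of LINC01322 and LINC01424 (−0.17 and −0.33), described below, did not pass. DESeq2 did not call LINC02454, LINC01094, LINC01341 or LINC01424. Of these, edgeR without a filter on low counts called LINC01424, which in turn did not pass with upper-quartile scaling.

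LINC01619 had the highest fitted fold change with STS_apoEV, a rank partly fixed by its passing the read minimum only through that group. It had 2.31, 2.09 and 3.31 CPM with STS_apoEV, 0.2501, 0.183 and 0.254 CPM with DDP_apoEV and 0.586, 0.274 and 0.625 CPM in control, on 31 to 47 reads per STS_apoEV library, 3 or 4 per DDP_apoEV library and 4 to 9 per control library. All STS_apoEV libraries lay well above all others (log2 fold change 2.36, SE 0.44, adjusted p = 6.94e-05). LINC01619 (ENSG00000257242; chromosome 12, 91984976 to 92142914, minus strand, hg38 as deposited) overlaps the 3′ end of BTG1 on the same strand. BTG1, an anti-proliferative gene that also promotes the removal of messenger RNA poly(A) tails, had 199, 183 and 201 CPM with STS_apoEV, 83.2, 90.02 and 80.4 CPM with DDP_apoEV and 87.2, 84.3 and 104 CPM in control. It too was higher with STS_apoEV (log2 fold change 1.08, SE 0.08, adjusted p = 2.76e-12), while the groups DDP_apoEV and control overlapped. Where the exons of both genes share positions, their reads cannot be told apart, and the effect on either value was not tested.

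The 300 bases around the annotated starts of this pair, 250 before and 50 after, are shown because the genes lie on the same strand and moved together. They come from RefSeq (GRCh38.p14), 5′ to 3′ on the minus strand, at chr12:92142782-92143081 for LINC01619 and chr12:92145797-92146096 for BTG1. Capitals mark matches on either strand to TATAAA (the TATA box), CCAAT and CATTCC (the TEAD motif), the motifs found among the 5 searched.
LINC01619: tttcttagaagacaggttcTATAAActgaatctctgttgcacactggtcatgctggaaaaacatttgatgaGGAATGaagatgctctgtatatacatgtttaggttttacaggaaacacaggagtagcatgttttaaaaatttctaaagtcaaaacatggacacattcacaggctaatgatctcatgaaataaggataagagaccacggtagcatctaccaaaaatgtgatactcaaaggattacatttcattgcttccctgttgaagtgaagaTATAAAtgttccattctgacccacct
BTG1: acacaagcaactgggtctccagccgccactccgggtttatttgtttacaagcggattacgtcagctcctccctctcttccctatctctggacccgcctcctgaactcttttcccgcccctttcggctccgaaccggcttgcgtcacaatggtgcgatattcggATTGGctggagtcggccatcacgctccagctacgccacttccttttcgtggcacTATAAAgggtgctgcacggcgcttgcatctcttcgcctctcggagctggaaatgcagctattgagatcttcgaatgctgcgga
The LINC01619 window was 36.0% G and C with an observed to expected CpG ratio of 0.103, and held TATAAA at a pair of positions and the TEAD motif once, on the opposite strand. The BTG1 window was 56.0% G and C with a ratio of 0.962, and held TATAAA near its start and a CCAAT motif on the opposite strand. A match is a description of letters and not a bound site.

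The other large rises included genes at different levels. LINC00324 and LINC00488 hung on the read minimum, so the size of their rises is partly fixed by it. LINC00324 had 3.296, 1.69 and 2.32 CPM with STS_apoEV, 0.5002, 0.488 and 0.0635 CPM with DDP_apoEV and 0.846, 0.479 and 0.555 CPM in control, the STS_apoEV libraries being above all others (log2 fold change 1.94, SE 0.46, adjusted p = 0.00118), while CTC1, the telomere-maintenance gene that lies 772 bases away on the same strand, did not pass (log2 fold change 0.08, SE 0.12, adjusted p = 0.656). LINC00488 had 1.68, 2.02 and 2.46 CPM with STS_apoEV, 0.938, 0.914 and 1.08 CPM with DDP_apoEV and 0.3904, 0.547 and 0.694 CPM in control, with no overlap between any pair of groups. It passed with STS_apoEV (log2 fold change 1.91, SE 0.42, adjusted p = 5.06e-04) and not with DDP_apoEV (log2 fold change 0.84, SE 0.44, adjusted p = 0.2197). LINC01730 had 3.93, 2.901 and 3.52 CPM with STS_apoEV, 2.25, 1.77 and 2.795 CPM with DDP_apoEV and 1.17, 0.958 and 0.763 CPM in control (log2 fold change 1.83, SE 0.32, adjusted p = 3.42e-05 with STS_apoEV), and the 3 groups again did not overlap. It lies 2236 bases from CDC25B, a phosphatase that activates cyclin-dependent kinases, on the same strand, which had 234 ± 4.99 CPM with STS_apoEV, 201 ± 15.6 CPM with DDP_apoEV and 179 ± 10.3 CPM in control (log2 fold change 0.39, SE 0.07, adjusted p = 9.85e-05 with STS_apoEV). LINC01091 had 4.14, 2.83 and 3.31 CPM with STS_apoEV, 1.0, 0.244 and 0.826 CPM with DDP_apoEV and 0.781, 1.57 and 1.32 CPM in control (log2 fold change 1.48, SE 0.37, adjusted p = 0.002103), with STS_apoEV above both other groups. Its neighbour on the same strand, the growth-factor signalling inhibitor SPRY1, 135266 bases away, had 6.75 ± 0.653 CPM with STS_apoEV, 3.86 ± 0.448 CPM with DDP_apoEV and 4.35 ± 1.06 CPM in control (log2 fold change 0.64, SE 0.22, adjusted p = 0.0225).

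LINC00467, on chromosome 1 beside the signalling adaptor gene TRAF5, gave a rise of smaller size and higher precision. It had 15.4, 16.3 and 16.8 CPM with STS_apoEV, 10.9, 11.8 and 11.4 CPM with DDP_apoEV and 6.77, 8.07 and 8.75 CPM in control, and the 3 groups were fully separate, with STS_apoEV highest and control lowest (log2 fold change 1.04, SE 0.14, adjusted p = 4.10e-07 with STS_apoEV). Its transcript is known to encode a small peptide that associates with mitochondrial ATP synthase. TRAF5 had 33.7 ± 1.78 CPM with STS_apoEV, 26.3 ± 0.929 CPM with DDP_apoEV and 24.7 ± 2.49 CPM in control and also passed with STS_apoEV (log2 fold change 0.45, SE 0.10, adjusted p = 6.25e-04). LINC00963, with 383 to 877 reads per library, had 53.8, 59.2 and 49.3 CPM with STS_apoEV, 34.9, 31.02 and 35.1 CPM with DDP_apoEV and 30.5, 26.2 and 41.6 CPM in control (log2 fold change 0.72, SE 0.13, adjusted p = 2.91e-04), all STS_apoEV libraries being above the others. LINC00174 had 17.5 ± 1.57 CPM with STS_apoEV, 9.21 ± 0.571 CPM with DDP_apoEV and 10.2 ± 2.04 CPM in control (log2 fold change 0.79, SE 0.15, adjusted p = 6.47e-05). LINC00963 and LINC00174 were picked after their values were seen.

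LINC02454, LINC01094 and LINC01341 also met the rule for the largest rises, on fewer reads. Since LINC02454 hung on the read minimum, the size of its rise is partly fixed by that minimum. LINC02454 had 9 to 15 reads per STS_apoEV library, 7 to 19 per DDP_apoEV library and 3 to 6 per control library. Its STS_apoEV to control rate ratio was 3.18 (1.62 to 6.7, 95% exact interval, counting error only; log2 fold change 1.63, SE 0.60, adjusted p = 0.0348). The call was lost when STS_apoEV replicate 2 or 3 or control replicate 1 or 2 was left out (log2 fold change 1.42 to 1.61). LINC01094 (log2 fold change 1.23, SE 0.43, adjusted p = 0.0277) lost it without any of STS_apoEV replicates 1 and 3 and the 3 control replicates (1.01 to 1.34). LINC01341 (log2 fold change 1.20, SE 0.44, adjusted p = 0.0337) lost it without any of STS_apoEV replicates 1 and 2 and control replicates 1 and 2 (0.84 to 1.34).

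**Figure D2:**
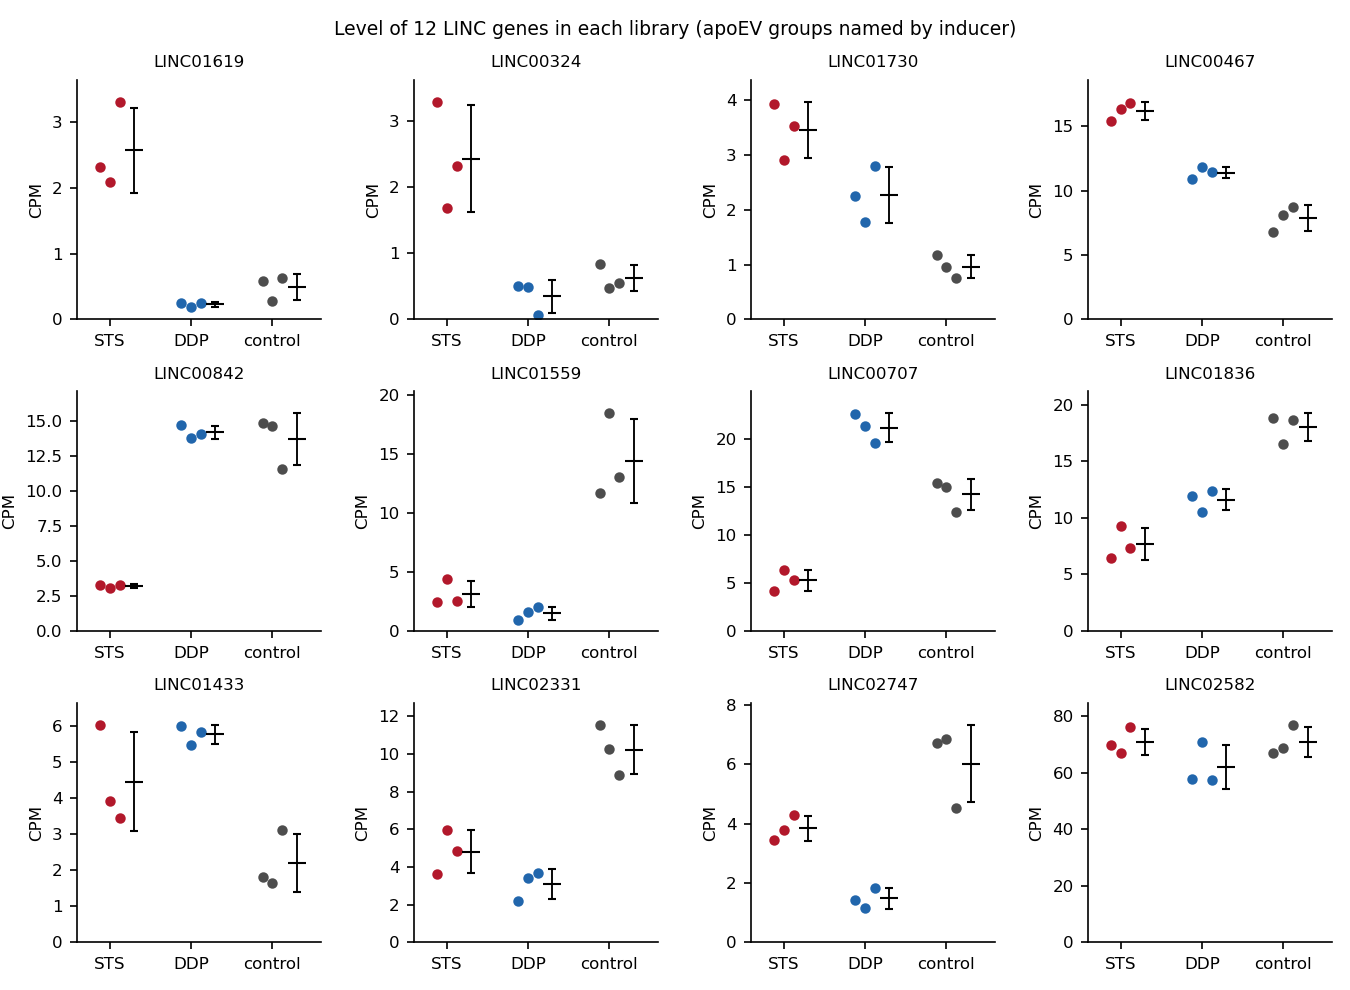
CPM of 12 LINC genes in each library (points), with the mean and SD of 3 libraries as a bar to the right of each group, for STS_apoEV, DDP_apoEV and control. LINC01619 and LINC00324 were high with STS_apoEV, LINC00842 was low with STS_apoEV, LINC01559 was low with both vesicle types, LINC00707 was lower with STS_apoEV and higher with DDP_apoEV than in control, and LINC02582 overlapped across groups. The size of the LINC01619 and LINC00324 differences is partly fixed by the read minimum.

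Among the falls with STS_apoEV, LINC00842 had the smallest SE of the 8 largest. It had 3.296, 3.04 and 3.31 CPM with STS_apoEV, 14.7, 13.8 and 14.04 CPM with DDP_apoEV and 14.8, 14.6 and 11.5 CPM in control, so that the STS_apoEV libraries were far below both other groups, which overlapped (4.25-fold lower than control; log2 fold change −2.09, SE 0.16, adjusted p = 5.22e-12). With DDP_apoEV its log2 fold change was 0.05 (adjusted p = 0.8596). LINC00842 (ENSG00000285294) lies at chromosome 10, 46398362 to 46453306, plus strand, 6578 bases downstream of ANXA8L1, an annexin gene, on the same strand. ANXA8L1 had 22.4, 21.8 and 20.4 CPM with STS_apoEV, 18.7, 19.1 and 19.9 CPM with DDP_apoEV and 34.4, 31.4 and 32.3 CPM in control, lower with both vesicle types (log2 fold change −0.60, SE 0.10, adjusted p = 1.65e-05 with STS_apoEV, and log2 fold change −0.77, SE 0.10, adjusted p = 9.38e-07 with DDP_apoEV), a different order of groups from LINC00842.

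LINC01559 fell with both vesicle types. It had 2.45, 4.38 and 2.53 CPM with STS_apoEV, 0.938, 1.58 and 2.03 CPM with DDP_apoEV and 11.7, 18.5 and 13.05 CPM in control, and the 3 groups did not overlap. Against control it was 4.59-fold lower with STS_apoEV (log2 fold change −2.20, SE 0.25, adjusted p = 1.14e-07) and 9.45-fold lower with DDP_apoEV (log2 fold change −3.24, SE 0.27, adjusted p = 1.80e-09), and it was higher with STS_apoEV than with DDP_apoEV (log2 fold change 1.04, SE 0.29, adjusted p = 0.00581). LINC01559 (ENSG00000180861) lies at chromosome 12, 13371089 to 13387167, minus strand. The nearest coding gene, the glutamate receptor subunit gene GRIN2B, lies 50775 bases away on the same strand and passed in no comparison (log2 fold change −0.95, SE 0.39, adjusted p = 0.0604 for STS_apoEV against control).

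LINC01836, sixth by FPKM, also fell with both. It had 6.45, 9.24 and 7.32 CPM with STS_apoEV, 11.9, 10.5 and 12.3 CPM with DDP_apoEV and 18.8, 16.6 and 18.6 CPM in control, with STS_apoEV lowest, control highest and no overlap (log2 fold change −1.23, SE 0.15, adjusted p = 3.97e-08 with STS_apoEV, and log2 fold change −0.63, SE 0.14, adjusted p = 0.00132 with DDP_apoEV). It lies on chromosome 19 beside PTBP1, the splicing regulator gene, which did not pass against control with either vesicle type (−0.12 with STS_apoEV and 0.13 with DDP_apoEV, log2 fold changes). LINC02643 had 1.05, 1.75 and 1.197 CPM with STS_apoEV, 3.94, 2.38 and 4.19 CPM with DDP_apoEV and 3.12, 4.45 and 5.14 CPM in control (log2 fold change −1.66, SE 0.31, adjusted p = 6.38e-05), with STS_apoEV below all other libraries. LINC03040, typed as protein-coding in GENCODE v29, had 0.905 ± 0.50 CPM with STS_apoEV, 1.64 ± 0.21 CPM with DDP_apoEV and 3.39 ± 0.821 CPM in control (log2 fold change −1.90, SE 0.36, adjusted p = 8.61e-05 with STS_apoEV, and log2 fold change −1.04, SE 0.33, adjusted p = 0.0277 with DDP_apoEV). LINC01322, which overlaps the butyrylcholinesterase gene BCHE on the opposite strand, had 0.841, 1.55 and 0.845 CPM with STS_apoEV, 2.19, 2.19 and 2.097 CPM with DDP_apoEV and 3.32, 3.42 and 3.12 CPM in control (log2 fold change −1.60, SE 0.32, adjusted p = 1.77e-04), the groups being separate.

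The promoter windows of LINC00842 and LINC01836 are shown as examples of falls with STS_apoEV, 1 window rich in CpG and 1 poor in it. Both are from RefSeq (GRCh38.p14), plus strand, at chr10:46398112-46398411 and chr19:782546-782845, with capitals on the CCAAT motif and on CATTCC, which is read here on the opposite strand.
LINC00842: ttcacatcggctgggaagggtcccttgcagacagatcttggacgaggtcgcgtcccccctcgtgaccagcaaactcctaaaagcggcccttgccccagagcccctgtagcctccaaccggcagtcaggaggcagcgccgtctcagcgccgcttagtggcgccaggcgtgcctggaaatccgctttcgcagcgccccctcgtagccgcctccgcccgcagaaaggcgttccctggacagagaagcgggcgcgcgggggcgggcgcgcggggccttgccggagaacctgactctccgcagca
LINC01836: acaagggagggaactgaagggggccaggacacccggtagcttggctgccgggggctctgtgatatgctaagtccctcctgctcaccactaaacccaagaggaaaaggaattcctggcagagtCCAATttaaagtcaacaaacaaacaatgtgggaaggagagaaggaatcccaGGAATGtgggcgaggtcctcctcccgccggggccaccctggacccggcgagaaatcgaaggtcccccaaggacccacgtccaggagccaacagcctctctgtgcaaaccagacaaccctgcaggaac
The LINC00842 window was 68.3% G and C with an observed to expected CpG ratio of 0.889 and held no match to any of the 5 motifs searched. The LINC01836 window was 57.7% G and C with a ratio of 0.361 and held a CCAAT and a TEAD match.

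Other falls with STS_apoEV rested on few reads. LINC01508, LINC02043 and LINC01424 all hung on the read minimum, so the size of their falls is partly fixed by it. LINC01508 had 5, 2 and 5 reads with STS_apoEV, 15, 30 and 30 with DDP_apoEV and 26, 15 and 22 in control, and its STS_apoEV to control rate ratio was 0.196 (0.0964 to 0.368; log2 fold change −2.32, SE 0.51, adjusted p = 6.01e-04). LINC02043 had 6, 2 and 3 reads with STS_apoEV, 17, 15 and 14 with DDP_apoEV and 19, 13 and 21 in control, a ratio of 0.214 (0.101 to 0.415; log2 fold change −2.19, SE 0.55, adjusted p = 0.00216). It lies 3822 bases from RFC4, a subunit of the clamp loader of DNA replication, on the same strand, and RFC4 had 35.4, 36.1 and 41.5 CPM with STS_apoEV, 65.5, 63.3 and 59.8 CPM with DDP_apoEV and 61.04, 62.2 and 55.4 CPM in control, also lower with STS_apoEV (log2 fold change −0.66, SE 0.09, adjusted p = 3.07e-07). LINC01424, whose start lies 57 bases from that of UBE2G2, had 1, 11 and 9 reads with STS_apoEV against 31, 11 and 17 in control (log2 fold change −1.43, SE 0.56, adjusted p = 0.0478). Its call was lost without STS_apoEV replicate 1 or 3, DDP_apoEV replicate 1 or 2 or control replicate 1 or 3 (log2 fold change −1.67 to −0.94).

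**Figure D3:**
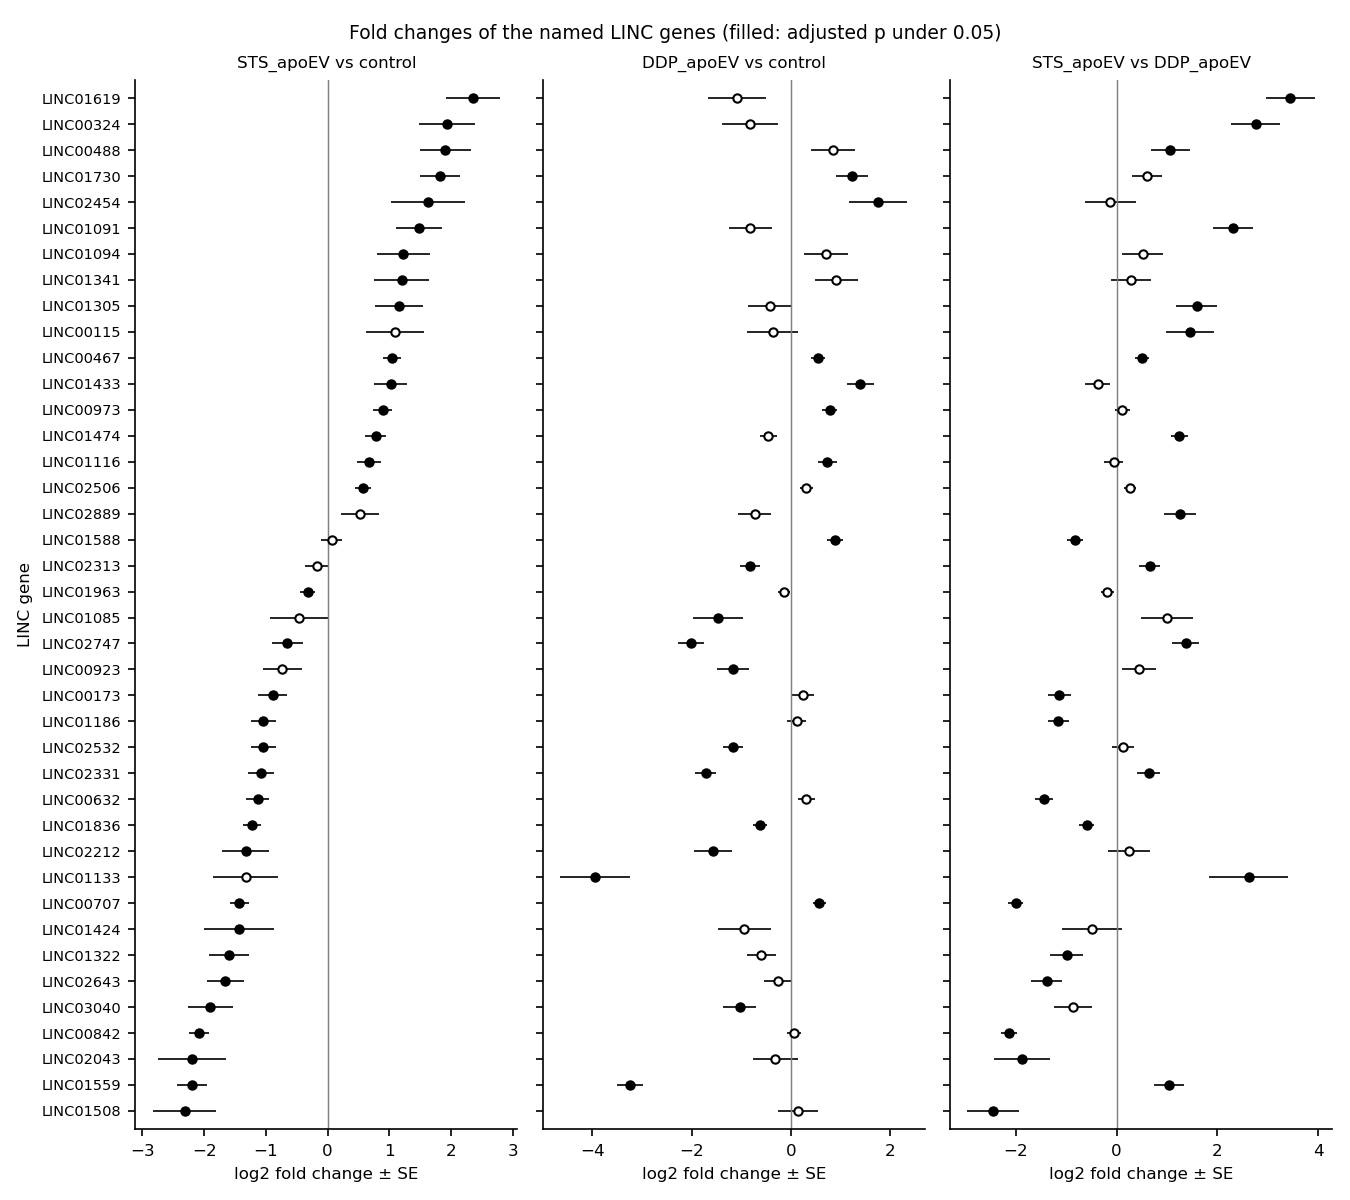
Log2 fold change with its SE (bars) of the named LINC genes that passed in at least 1 comparison, in 3 panels for STS_apoEV against control, DDP_apoEV against control and STS_apoEV against DDP_apoEV. Filled points passed an adjusted p of 0.05, open points did not. LINC01619 had the highest value with STS_apoEV, and LINC01133, whose value rests on 4 reads with DDP_apoEV, and LINC01559 the lowest with DDP_apoEV. The places of LINC01619 and LINC01133 are partly fixed by the read minimum.

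The second comparison set cells given vesicles of cisplatin-induced apoptosis against control cells. Of the genes whose place did not hang on the read minimum, LINC01433 and LINC01730 had the largest rises and LINC01559 and LINC02747 the largest falls among those named. Of the 212 LINC genes 26 (12.3%) passed against control, 9 higher and 17 lower, and 186 did not pass. Of the 26, 3 (LINC02454, LINC01133 and LINC01085) were among the genes that hung on the minimum. Of all tested genes 15.5% were called (7.16% higher and 8.32% lower), and 14% of coding genes of similar read number (5.27% higher and 8.68% lower). At least 2-fold changes were seen in 12 LINC genes (3 higher and 9 lower), 5.66% against 3.3% of all genes. All 3 called genes that hung on the minimum were among these 12, so this share too is partly fixed by the rule. It was not computed for the coding genes of similar read number. The median log2 fold change was −0.08, against −0.00 over all genes and −0.05 over those coding genes. Libraries did not overlap for 59 LINC genes (27.8%), against 32.2% of all genes. Limma on log2(FPKM + 1) called 14 LINC genes. On that scale LINC02454, LINC01588, LINC00707 (0.25 to 0.37), LINC01085, LINC00923 and LINC02532 (−0.37 to −0.12) did not pass, and neither DESeq2 nor edgeR without a filter on low counts called LINC02454 or LINC01085. Both vesicle comparisons use the same control libraries, so their values are given side by side and not as independent results.

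Among the genes that rose with DDP_apoEV, LINC01433 had 6.03, 3.91 and 3.45 CPM with STS_apoEV, 6.002, 5.49 and 5.84 CPM with DDP_apoEV and 1.82, 1.64 and 3.12 CPM in control. Both vesicle groups lay above control without overlap (log2 fold change 1.40, SE 0.26, adjusted p = 2.27e-04 with DDP_apoEV, and log2 fold change 1.02, SE 0.27, adjusted p = 0.00322 with STS_apoEV). LINC01433 (ENSG00000230176; chromosome 20, 4192932 to 4195953, plus strand) starts 5185 bases downstream of SMOX, the spermine oxidase gene of polyamine breakdown, on the same strand. SMOX had 134, 151 and 134 CPM with STS_apoEV, 141, 139.6 and 117 CPM with DDP_apoEV and 63.6, 54.2 and 66.8 CPM in control, again with both vesicle groups above control (log2 fold change 1.11, SE 0.09, adjusted p = 2.89e-11 with DDP_apoEV, and log2 fold change 1.18, SE 0.09, adjusted p = 1.81e-12 with STS_apoEV). The promoter window of LINC01433 is shown because this was the largest rise with DDP_apoEV after LINC02454, which rests on few reads and passed the minimum only through the vesicle groups. It is from RefSeq (GRCh38.p14), plus strand, chr20:4192840-4193139, with capitals on TATAAA and on CCAAT in either orientation.
LINC01433: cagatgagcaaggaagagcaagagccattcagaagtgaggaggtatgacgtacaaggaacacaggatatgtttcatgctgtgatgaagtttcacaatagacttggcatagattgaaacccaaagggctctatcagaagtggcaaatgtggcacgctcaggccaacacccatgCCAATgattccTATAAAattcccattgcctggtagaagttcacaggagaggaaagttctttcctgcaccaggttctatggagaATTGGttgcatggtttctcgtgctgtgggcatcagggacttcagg
It was 46.7% G and C with an observed to expected CpG ratio of 0.188 and held TATAAA once and CCAAT on each strand.

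LINC00973, second by FPKM, had 15.4, 16.4 and 17.5 CPM with STS_apoEV, 18.7, 12.8 and 13.9 CPM with DDP_apoEV and 10.6, 8.55 and 7.29 CPM in control, with both vesicle groups above control (log2 fold change 0.78, SE 0.15, adjusted p = 3.79e-04 with DDP_apoEV, and log2 fold change 0.89, SE 0.15, adjusted p = 2.32e-05 with STS_apoEV). Its nearest coding gene, the receptor-like membrane protein gene DCBLD2, 79363 bases away, had 1049 ± 90.6 CPM with STS_apoEV, 1357 ± 15.6 CPM with DDP_apoEV and 942 ± 81.7 CPM in control and passed with DDP_apoEV (log2 fold change 0.53, SE 0.07, adjusted p = 2.84e-06). LINC01116 had 7.34 ± 0.5197 CPM with STS_apoEV, 7.65 ± 0.979 CPM with DDP_apoEV and 4.62 ± 0.664 CPM in control (log2 fold change 0.73, SE 0.19, adjusted p = 0.006498 with DDP_apoEV, and log2 fold change 0.67, SE 0.19, adjusted p = 0.00637 with STS_apoEV). Its DDP_apoEV call was lost without DDP_apoEV replicate 2 (log2 fold change 0.62). LINC01588 had 7.08, 6.88 and 9.57 CPM with STS_apoEV, 14.3, 15.97 and 11.3 CPM with DDP_apoEV and 7.74, 7.52 and 7.15 CPM in control, with DDP_apoEV above both other groups (log2 fold change 0.89, SE 0.16, adjusted p = 1.36e-04), while its STS_apoEV value was 0.07 (adjusted p = 0.7999). LINC01730 (log2 fold change 1.22, SE 0.33, adjusted p = 0.00883) lost its DDP_apoEV call without DDP_apoEV replicate 3 or control replicate 3 (1.05 and 1.08). LINC00467 (log2 fold change 0.54, SE 0.14, adjusted p = 0.007604) lost it without control replicate 1 (0.44). LINC02454 (log2 fold change 1.75, SE 0.59, adjusted p = 0.0385; rate ratio 3.42, 1.78 to 7.11) lost it without DDP_apoEV replicate 1 or 2 or control replicate 1 or 2 (1.54 to 1.59).

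Among the falls with DDP_apoEV, LINC02331 had 3.65, 5.94 and 4.86 CPM with STS_apoEV, 2.19, 3.41 and 3.68 CPM with DDP_apoEV and 11.5, 10.3 and 8.88 CPM in control, with both vesicle groups below control (log2 fold change −1.72, SE 0.22, adjusted p = 4.10e-07 with DDP_apoEV, and log2 fold change −1.08, SE 0.21, adjusted p = 1.22e-04 with STS_apoEV). LINC02331 (ENSG00000235269; chromosome 14, 53685139 to 53850882, minus strand) lies 98854 bases from BMP4, the gene of a secreted growth factor of the TGF-beta family, on the same strand. BMP4 had 39.97, 42.4 and 42.4 CPM with STS_apoEV, 23.6, 23.04 and 26.3 CPM with DDP_apoEV and 47.5, 48.6 and 55.4 CPM in control, and the 3 groups did not overlap (log2 fold change −1.05, SE 0.09, adjusted p = 2.60e-10 with DDP_apoEV, and log2 fold change −0.28, SE 0.09, adjusted p = 0.0156 with STS_apoEV). LINC02747 had 3.44, 3.78 and 4.29 CPM with STS_apoEV, 1.44, 1.16 and 1.84 CPM with DDP_apoEV and 6.702, 6.84 and 4.51 CPM in control, DDP_apoEV being lowest, STS_apoEV between and control highest (log2 fold change −2.02, SE 0.27, adjusted p = 9.11e-07 with DDP_apoEV, and log2 fold change −0.65, SE 0.24, adjusted p = 0.0395 with STS_apoEV). Its neighbour MYEOV, named for its overexpression in myeloma, had 64.6 ± 3.37 CPM with STS_apoEV, 117 ± 9.24 CPM with DDP_apoEV and 116 ± 4.68 CPM in control and passed with STS_apoEV (log2 fold change −0.85, SE 0.08, adjusted p = 3.58e-10) and not with DDP_apoEV (log2 fold change 0.01, SE 0.08, adjusted p = 0.937).

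LINC01133 had 4, 10 and 10 reads with STS_apoEV, 0, 2 and 2 with DDP_apoEV and 15, 18 and 29 in control. Its DDP_apoEV to control rate ratio was 0.0589 (0.0156 to 0.158, 95% exact interval, counting error only; adjusted p = 1.01e-04), and it did not pass with STS_apoEV (log2 fold change −1.33, SE 0.53, adjusted p = 0.05303). This gene had exactly the minimum of reads, 62 of its 90 in control, so it was kept only through the group where it is high, and the fitted log2 fold change at such counts depends on the prior count of the fit. LINC02532 had 4.72 ± 0.617 CPM with STS_apoEV, 4.31 ± 0.6601 CPM with DDP_apoEV and 9.74 ± 2.08 CPM in control (log2 fold change −1.17, SE 0.20, adjusted p = 5.94e-05 with DDP_apoEV, and log2 fold change −1.04, SE 0.20, adjusted p = 1.09e-04 with STS_apoEV). LINC02212 had 1.06 ± 0.237 CPM with STS_apoEV, 0.8896 ± 0.486 CPM with DDP_apoEV and 2.68 ± 0.312 CPM in control (log2 fold change −1.58, SE 0.38, adjusted p = 0.00366 with DDP_apoEV, and log2 fold change −1.33, SE 0.38, adjusted p = 0.00682 with STS_apoEV). LINC00923 (log2 fold change −1.17, SE 0.32, adjusted p = 0.0109) and LINC01085 (log2 fold change −1.47, SE 0.51, adjusted p = 0.04396) completed the 8 largest falls. LINC01085 lost its call when any single DDP_apoEV or control library was left out (−1.67 to −1.20).

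LINC00261, a lung and gut epithelial RNA transcribed beside the transcription factor gene FOXA2, was added after its value was seen. It had 3.58, 3.98 and 5.35 CPM with STS_apoEV, 2.38, 1.89 and 2.22 CPM with DDP_apoEV and 3.97, 4.24 and 3.89 CPM in control, with DDP_apoEV below the other groups, which overlapped (log2 fold change −0.90, SE 0.26, adjusted p = 0.0141 with DDP_apoEV). FOXA2, 2356 bases away on the same strand, was lower with both vesicle types (log2 fold change −0.46, SE 0.14, adjusted p = 0.0238 with DDP_apoEV, and log2 fold change −0.45, SE 0.14, adjusted p = 0.0143 with STS_apoEV).

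The last comparison set the vesicle types against each other. Of the genes whose place did not hang on the read minimum, LINC01091 and LINC01305 were higher with STS_apoEV by the most and LINC00842 and LINC00707 lower by the most among those named. Of the 212 LINC genes 64 (30.2%) passed between STS_apoEV and DDP_apoEV, 36 higher and 28 lower with STS_apoEV, against 39.7% of all tested genes (20.2% higher and 19.5% lower) and 33% of coding genes of similar read number (22.5% higher and 10.5% lower). Of the 64, 7 were among the genes that hung on the minimum. Without DDP_apoEV replicate 2 the split was 26 higher and 27 lower. The median log2 fold change over the LINC genes was 0.12, against 0.03 over all genes and 0.17 over those coding genes. At least 2-fold differences were seen in 24 LINC genes, 11.3% against 8.74% of all genes, and libraries did not overlap for 90 (42.5%), against 47.5% of all genes. All 7 called genes that hung on the minimum were among these 24, so the 2-fold share is partly fixed by the rule. It was not computed for the coding genes of similar read number. In the test of any difference among the 3 groups 83 LINC genes passed (39.2%), against 45.1% of all genes and 37.8% of coding genes of similar read number.

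**Figure D4:**
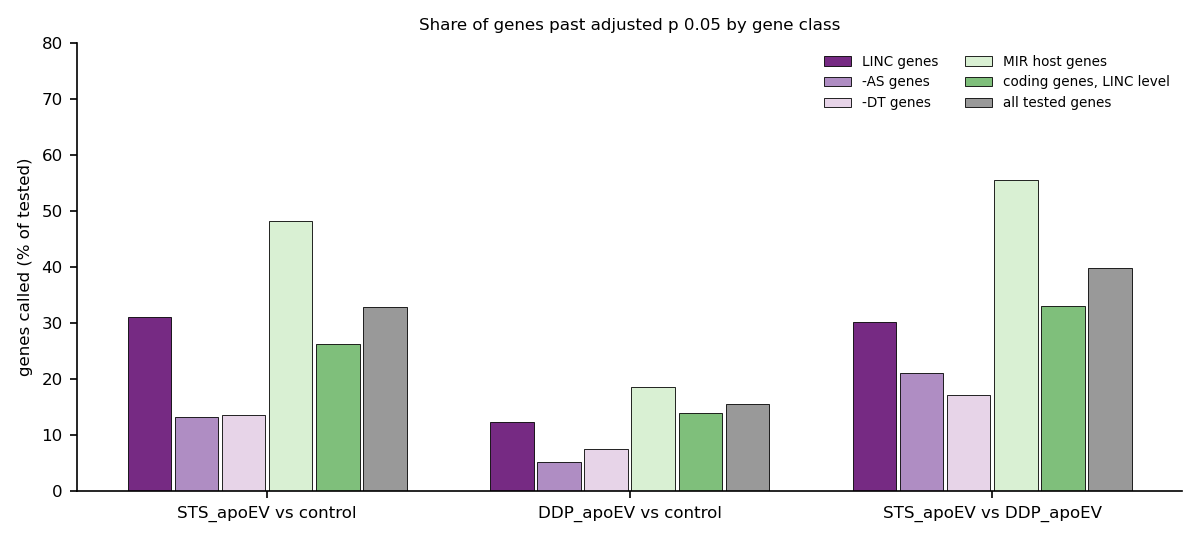
Bars give the share of tested genes that passed an adjusted p of 0.05 in each comparison, for the 212 LINC genes, genes whose symbols end in -AS or -DT, microRNA host genes, coding genes of similar read number and all tested genes. The LINC bars stood at 31.1%, 12.3% and 30.2%, near those of the coding genes (26.3%, 14% and 33%). The -AS bars (13.2%, 5.21% and 21.0%) and the -DT bars (13.6%, 7.58% and 17.2%) were lower than the LINC bars.

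LINC00707 was the gene among the 212 that passed against control with both vesicle types in opposite directions. It had 4.21, 6.34 and 5.28 CPM with STS_apoEV, 22.6, 21.3 and 19.6 CPM with DDP_apoEV and 15.4, 14.98 and 12.4 CPM in control, and the 3 groups did not overlap. It was lower than control with STS_apoEV (log2 fold change −1.43, SE 0.15, adjusted p = 4.98e-09) and higher with DDP_apoEV (log2 fold change 0.57, SE 0.14, adjusted p = 0.00299), and the difference between the vesicle types was itself tested (4.01-fold lower with STS_apoEV; log2 fold change −2.00, SE 0.15, adjusted p = 1.47e-12). LINC00707 (ENSG00000238266; chromosome 10, 6779549 to 6879450, plus strand) has been described as an RNA that promotes growth of lung adenocarcinoma cells. Its nearest coding gene, PRKCQ, a protein kinase C of T-cell signalling, 199248 bases away, had 4.84, 7.08 and 6.05 CPM with STS_apoEV, 12.6, 10.9 and 10.99 CPM with DDP_apoEV and 9.696, 10.9 and 10.1 CPM in control, lower with STS_apoEV than with either other group (log2 fold change −0.77, SE 0.16, adjusted p = 3.97e-04 against control, and log2 fold change −0.94, SE 0.16, adjusted p = 2.04e-05 against DDP_apoEV), and did not pass with DDP_apoEV (log2 fold change 0.17, SE 0.16, adjusted p = 0.539). On the log2(FPKM + 1) scale the rise of LINC00707 with DDP_apoEV did not pass (0.37).

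LINC01619, LINC00324 and LINC01091 were among the genes higher with STS_apoEV than with DDP_apoEV (3.44, 2.76 and 2.30, log2 fold changes), with values given above. The rate ratio of LINC01619 was 11.4 (6.13 to 23.5), that of LINC00324 6.98 (4.16 to 12.4) and that of LINC01133 6.78 (2.33 to 26.9). The intervals hold counting error only, and LINC01133 had 24 reads with STS_apoEV and 4 with DDP_apoEV. LINC01619, LINC00324, LINC01133 and LINC00115 hung on the read minimum, so the size of their differences is partly fixed by it and is a description. On the log2(FPKM + 1) scale LINC01133 did not pass (0.16), and DESeq2 did not call LINC00115. LINC01305, 4311 bases from the transcription factor gene SP9 on the same strand, had 2.17, 2.496 and 3.097 CPM with STS_apoEV, 0.7502, 0.549 and 1.27 CPM with DDP_apoEV and 0.586, 0.958 and 1.94 CPM in control (log2 fold change 1.59, SE 0.41, adjusted p = 0.00204), and SP9 had 6.23 ± 1.43 CPM with STS_apoEV, 3.24 ± 0.825 CPM with DDP_apoEV and 3.27 ± 0.375 CPM in control (log2 fold change 0.94, SE 0.24, adjusted p = 0.00216). LINC02747 (log2 fold change 1.37, SE 0.27, adjusted p = 1.28e-04) was higher with STS_apoEV while its neighbour MYEOV was lower (log2 fold change −0.86, SE 0.08, adjusted p = 1.71e-10). LINC02889 had 3.45 ± 1.01 CPM with STS_apoEV, 1.44 ± 0.625 CPM with DDP_apoEV and 2.396 ± 0.5102 CPM in control (log2 fold change 1.26, SE 0.32, adjusted p = 0.00211). LINC00115 (log2 fold change 1.46, SE 0.48, adjusted p = 0.0148) lost its call without STS_apoEV replicate 2 or 3 or DDP_apoEV replicate 3 (1.13 to 1.40), and its neighbour SAMD11 moved the other way (log2 fold change −1.12, SE 0.20, adjusted p = 3.42e-05).

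On the lower side stood LINC01508 (−2.45), LINC00842 (−2.14), LINC00707, LINC02043 (−1.87) and LINC02643 (−1.38), log2 fold changes of STS_apoEV against DDP_apoEV. The values of LINC01508 and LINC02043, which hung on the read minimum, are partly fixed by it. LINC00632, the X-chromosome host gene of the circular RNA CDR1as, had 3.79, 3.44 and 3.59 CPM with STS_apoEV, 10.1, 8.898 and 10.4 CPM with DDP_apoEV and 8.13, 8.82 and 6.802 CPM in control, with STS_apoEV below both other groups (log2 fold change −1.44, SE 0.18, adjusted p = 1.22e-07). These are reads over the host gene and not of the circular RNA. LINC01186 had 3.24 ± 0.668 CPM with STS_apoEV, 7.22 ± 0.773 CPM with DDP_apoEV and 6.66 ± 0.538 CPM in control (log2 fold change −1.16, SE 0.21, adjusted p = 2.83e-05), and LINC00173 had 3.28 ± 1.13 CPM with STS_apoEV, 7.21 ± 0.5302 CPM with DDP_apoEV and 6.09 ± 1.41 CPM in control (log2 fold change −1.13, SE 0.23, adjusted p = 1.71e-04). LINC00857, described as growth-promoting in lung cancer cells and picked after its values were seen, had 6.38, 9.38 and 10.5 CPM with STS_apoEV, 15.7, 15.97 and 17.98 CPM with DDP_apoEV and 17.2, 15.8 and 15.6 CPM in control, with STS_apoEV below the other groups (log2 fold change −0.92, SE 0.15, adjusted p = 5.92e-06 against DDP_apoEV, and log2 fold change −0.89, SE 0.15, adjusted p = 1.44e-05 against control).

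Each LINC gene was paired with the protein-coding gene nearest to it by the gap between gene spans. The pairs involved 197 different coding genes, with a median gap of 12961 bases. LINC genes overlapped their coding neighbour in 26 pairs, 9 on the same strand and 17 on the opposite strand. In the others they lay on the same strand in 105 pairs, pointed away from each other in 45 and towards each other in 36. The gap was at least 50000 bases in 58 pairs, 17 LINC genes lay within 5000 bases downstream of a coding gene on its strand, and in 8 pairs divergent starts lay within 1000 bases. The neighbour was tested in 170 pairs.

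With STS_apoEV, 60 called LINC genes had a tested neighbour. In 23 of these pairs (38.3%) the neighbour was called in the same direction, in 7 in the opposite direction and in 30 it was not called. For comparison, coding genes called with STS_apoEV had a nearest coding gene called in the same direction in 27.0% of 3778 pairs. With DDP_apoEV the counts were 5 same (21.7%), 1 opposite and 17 not called of 23 pairs, against 14.9% same for coding genes. Between the vesicle types they were 20 same (38.5%), 12 opposite and 20 not called of 52 pairs, against 29.7% same for coding genes. The opposite shares were 11.7%, 4.35% and 23.1% in the 3 comparisons, against 13.6%, 5.7% and 17.5% for coding genes. Over all pairs with both tested, the neighbours of LINC genes were called more often, in 42.9%, 19.4% and 49.4%. For neighbours of coding genes this was 37.3%, 16.7% and 45.4%. The differences in share were not tested. Across the 170 pairs the log2 fold changes of gene and neighbour had a Pearson r of 0.19, 0.14 and 0.15 in the 3 comparisons, close to 0.16, 0.13 and 0.16 over 9551 pairs of coding genes. These correlations run across genes, which share libraries and in part reads and are not independent replicates. Among 52 LINC genes that overlapped no annotated gene and lay at least 5000 bases from their neighbour, 9 of 19 called genes with a tested neighbour moved with it in STS_apoEV and 1 moved against it. In pairs at least 50000 bases apart the counts were 5 same and 4 opposite of 20 with STS_apoEV, 2 and 1 of 13 with DDP_apoEV, and 3 and 5 of 10 between the vesicle types.

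**Figure D5:**
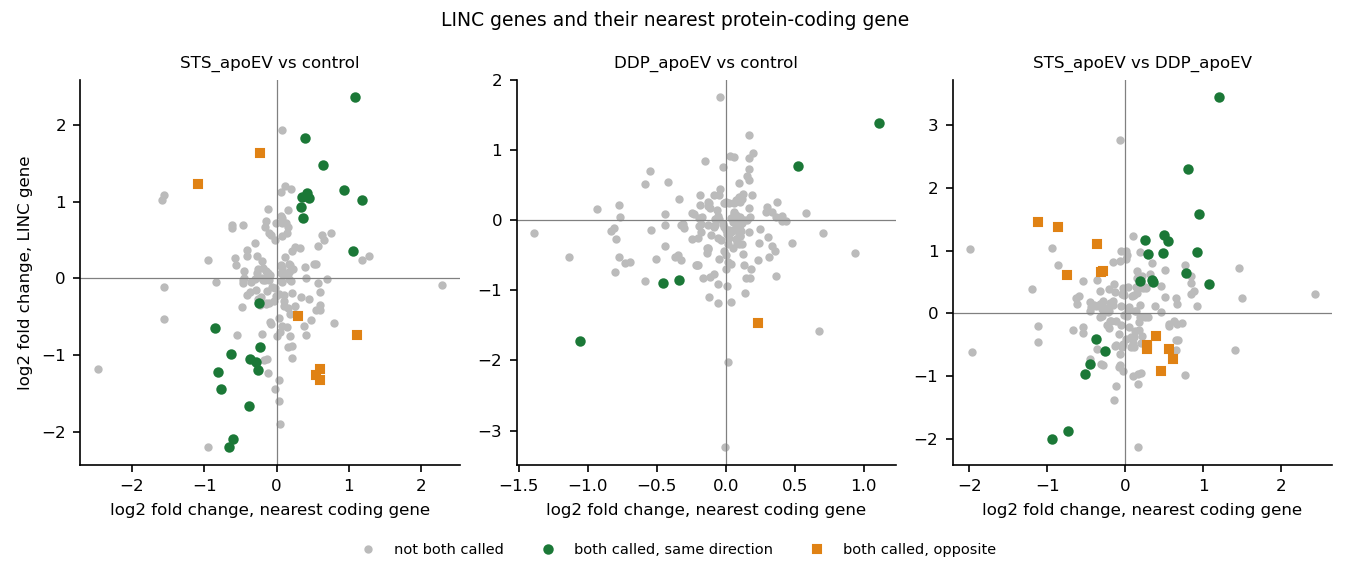
Log2 fold change of each LINC gene (vertical axis) against that of its nearest coding gene (horizontal axis) for the 170 pairs with both tested, in 3 panels by comparison. Green points mark pairs in which both passed in the same direction (23, 5 and 20), orange squares those in opposite directions (7, 1 and 12), and grey points all others.

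Pairs that moved together included, beside those above, genes of several functions. The following pairs were picked after their values were seen. LINC01564 and LINC01504 overlap their neighbours, and reads at shared positions cannot be told apart, an effect that was not tested. LINC01564 overlaps GCLC, the catalytic subunit gene of glutathione synthesis, on the opposite strand, and had 2.24, 3.37 and 3.31 CPM with STS_apoEV, 1.75, 1.04 and 1.78 CPM with DDP_apoEV and 1.43, 1.23 and 1.46 CPM in control (log2 fold change 1.11, SE 0.33, adjusted p = 0.00812 with STS_apoEV), while GCLC rose as well (log2 fold change 0.42, SE 0.07, adjusted p = 1.33e-05). LINC01474 lies 26536 bases from ALDH1A1, the retinaldehyde dehydrogenase gene, on the same strand, and ALDH1A1 rose with STS_apoEV (log2 fold change 0.36, SE 0.07, adjusted p = 1.43e-04). LINC01504 overlaps ZFAND5 on the opposite strand, had 11.9, 10.2 and 12.1 CPM with STS_apoEV, 8.503, 8.23 and 7.24 CPM with DDP_apoEV and 13.4, 15.3 and 14.5 CPM in control and fell with DDP_apoEV (log2 fold change −0.85, SE 0.14, adjusted p = 4.35e-05), as did ZFAND5 (log2 fold change −0.34, SE 0.08, adjusted p = 0.00161). LINC01126, whose start lies 604 bases from ZFP36L2, the gene of a protein that destabilises AU-rich messenger RNAs, was higher with STS_apoEV than with DDP_apoEV (log2 fold change 0.99, SE 0.34, adjusted p = 0.0219), as was ZFP36L2 (log2 fold change 0.92, SE 0.10, adjusted p = 2.41e-09).

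Other pairs moved apart. LINC02535 fell with STS_apoEV (log2 fold change −0.73, SE 0.25, adjusted p = 0.0224) while NT5E, the gene of the ectoenzyme CD73 that makes adenosine, 59398 bases away, rose (log2 fold change 1.11, SE 0.08, adjusted p = 1.87e-12). LINC02615 had 5.12, 6.14 and 5.702 CPM with STS_apoEV, 10, 11.8 and 10.4 CPM with DDP_apoEV and 13.3, 15.1 and 12.2 CPM in control and fell with STS_apoEV (log2 fold change −1.26, SE 0.16, adjusted p = 9.29e-08), while PGRMC2, a haem-binding membrane protein gene 3922 bases away, rose (log2 fold change 0.55, SE 0.09, adjusted p = 1.87e-05). LINC01270 had 5.12, 2.83 and 3.801 CPM with STS_apoEV, 5.31, 5.79 and 6.23 CPM with DDP_apoEV and 8.46, 8.55 and 9.58 CPM in control (log2 fold change −1.18, SE 0.20, adjusted p = 2.73e-05 with STS_apoEV), while the transcription factor gene CEBPB, 100041 bases away, rose (log2 fold change 0.60, SE 0.19, adjusted p = 0.0434). With DDP_apoEV LINC01270 also fell (log2 fold change −0.62, adjusted p = 0.0281) and CEBPB did not pass (0.04, adjusted p = 0.926). LINC01273, 14154 bases from CEBPB, and LINC01271, also beside it, did not pass with STS_apoEV (log2 fold changes −0.17 and −0.35, adjusted p = 0.708 and 0.62). LINC01094 rose with STS_apoEV while ANXA3, an annexin gene, had 84.1 ± 4.58 CPM with STS_apoEV, 122 ± 7.01 CPM with DDP_apoEV and 179 ± 11.3 CPM in control and fell (log2 fold change −1.09, SE 0.08, adjusted p = 5.31e-13).

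Promoter windows from RefSeq (GRCh38.p14) were found for 150 of the 212 genes. Counted over those windows, an observed to expected CpG ratio of at least 0.6 was seen in 38.7%, against 49% of 27305 promoters in the table. It was seen in 4 of 22 genes higher and 11 of 29 genes lower with STS_apoEV (18.2% and 37.9%). With DDP_apoEV it was seen in 1 of 6 genes higher and 1 of 13 lower. Between the vesicle types it was seen in 8 of 29 genes higher and 10 of 25 lower with STS_apoEV. The TEAD motif CATTCC stood in 15.3% of the LINC windows against 14% of all promoters, in 8 of the 22 genes higher (36.4%) and in 8 of the 29 lower (27.6%). With DDP_apoEV it stood in 3 of 6 genes higher (50%) and in 2 of 13 lower (15.4%). Between the vesicle types it stood in 5 of 29 genes higher (17.2%) and in 5 of 25 lower (20%) with STS_apoEV, closer to the share of all promoters. These sets are small. The AP-1 motif TGANTCA stood in 9.33% of LINC windows against 7.76% of all, the NRF2 motif TGACNNNGC in 20.7% against 13.6%, TATAAA in 12% of both, and CCAAT in 40.7% against 35.7%. In the genes higher and lower with STS_apoEV the AP-1 motif stood in 18.2% and 10.3%, the NRF2 motif in 13.6% and 27.6%, TATAAA in 18.2% and 20.7%, and CCAAT in 31.8% and 41.4%. Of the 6 genes higher and 13 lower with DDP_apoEV, AP-1 stood in 1 and 2, NRF2 in 0 and 5, TATAAA in 1 and 1, and CCAAT in 1 and 7. For genes higher and lower between the vesicle types, AP-1 stood in 17.2% and 0%, NRF2 in 17.2% and 20%, TATAAA in 13.8% and 16%, and CCAAT in 34.5% and 40%. Both strands were searched, and these are counts of letters in a window of 300 bases, with no test.

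Other long non-coding RNAs of the same cells were taken from 3 lists. Of 22 tested host genes of small nucleolar RNAs and related RNAs 7 were higher, 6 lower and 9 not called with STS_apoEV, and 7 higher, 0 lower and 15 not called with DDP_apoEV. The shares of all genes called, to be read beside all 3 lists, were 32.8% with STS_apoEV, 15.5% with DDP_apoEV and 39.7% between the vesicle types. Between the vesicle types 4 were higher and 9 lower with STS_apoEV. Their medians were 0.09 and 0.17 (log2 fold change), against 0.01 and −0.00 over all genes. SNHG1 had 74.2 ± 2.96 CPM with STS_apoEV, 158 ± 10.6 CPM with DDP_apoEV and 123 ± 4.44 CPM in control, below control with STS_apoEV (log2 fold change −0.73) and above it with DDP_apoEV (0.36), and SNHG15 had 23.1 ± 1.39 CPM with STS_apoEV, 45.7 ± 3.601 CPM with DDP_apoEV and 37.3 ± 1.26 CPM in control (−0.69 and 0.29). Rises with STS_apoEV in this list included EPB41L4A-AS1 and ZFAS1 (log2 fold changes 0.64 and 0.38). Of 16 nuclear-architecture and long-studied RNAs 5 were higher and 2 lower with STS_apoEV, and 1 higher and 5 lower with DDP_apoEV (medians 0.05 and −0.18). Between the vesicle types 5 were higher and 1 lower with STS_apoEV. MALAT1, an abundant nuclear-speckle RNA, had 830.3 ± 38.5 CPM with STS_apoEV, 414 ± 78.2 CPM with DDP_apoEV and 716 ± 59.2 CPM in control and fell with DDP_apoEV (log2 fold change −0.79). MEG3, an imprinted RNA that activates p53, had 34.1 ± 1.18 CPM with STS_apoEV, 29.3 ± 2.03 CPM with DDP_apoEV and 13.2 ± 3.08 CPM in control and was higher with both vesicle types (1.37 with STS_apoEV and 1.15 with DDP_apoEV).

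Of 22 cancer- and stress-linked RNAs 5 were higher, 4 lower and 13 not called with STS_apoEV, and 2 higher, 1 lower and 19 not called with DDP_apoEV (medians 0.04 and 0.08). Between the vesicle types 6 were higher and 6 lower with STS_apoEV. MIR4435-2HG had 19.4 ± 2.68 CPM with STS_apoEV, 42.5 ± 1.71 CPM with DDP_apoEV and 36.97 ± 3.48 CPM in control and fell with STS_apoEV (log2 fold change −0.93). MIR31HG, host gene of miR-31, had 17.9 ± 1.3 CPM with STS_apoEV, 10.8 ± 0.433 CPM with DDP_apoEV and 10.97 ± 1.31 CPM in control and rose with STS_apoEV (0.71). MIR100HG, host gene of miR-100 and let-7a-2, had 9.25 ± 0.598 CPM with STS_apoEV, 11.7 ± 1.21 CPM with DDP_apoEV and 5.77 ± 1.701 CPM in control and rose with DDP_apoEV (1.03). LUCAT1, a stress-induced RNA of lung epithelium, had 48.2 ± 3.88 CPM with STS_apoEV, 57.04 ± 3.196 CPM with DDP_apoEV and 43.6 ± 5.31 CPM in control and rose with DDP_apoEV (0.39). By class, genes with symbols ending in -AS (antisense, 499 tested) were called in 13.2% and 5.21% of cases with STS_apoEV and DDP_apoEV, those ending in -DT (divergent transcripts, 198 tested) in 13.6% and 7.58%, and 27 microRNA host genes in 48.1% and 18.5%. Between the vesicle types the shares were 21.0%, 17.2% and 55.6%. Beside these, the LINC genes had 31.1%, 12.3% and 30.2% and all tested genes 32.8%, 15.5% and 39.7% in the 3 comparisons. Levels differ between these classes, and the differences in share were not tested.

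The precision of the fold changes differed with read number. Among the 71 LINC genes with most reads (582 to 9284 summed) 34, 15 and 34 were called with STS_apoEV against control, with DDP_apoEV against control and between the vesicle types, with a median SE of 0.18 for STS_apoEV on the log2 scale. Among the 71 with fewest reads (90 to 225) 16, 4 and 11 were called, with a median SE of 0.46. Of all tested genes 32.8%, 15.5% and 39.7% were called in these comparisons. No share was computed for other genes in the same ranges of read number, so these counts describe the LINC genes alone. The called genes among those with fewest reads had a median absolute log2 fold change of 1.32 with STS_apoEV, against 0.77 among those with most reads. The spread between replicates, as the median SD of log2 CPM, was 0.28 both for the LINC genes and for coding genes of similar read number.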

How the data were processed

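Per the labels, RNA for 9 A549 libraries was isolated in TRIzol and made into libraries by NEBNext Ultra chemistry. The submitters' processing notes list HISAT2 2.0.5, StringTie 1.3.3b, featureCounts 1.5.0-p3, limma and genome hg38, giving no roles or strand setting. The authors deposited raw read counts per gene and FPKM values (scaled by the authors for length and depth) for the same 62257 rows. Of 61552 Ensembl IDs 61399 had a symbol. The other 705 rows, 0.313% to 0.357% of reads, name no gene.

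Counts were tested with edgeR 4.0.16 in R 4.3.3 (robust quasi-likelihood test, TMM scaling, default filter on low counts, all 9 libraries in 1 fit without covariates), with Benjamini-Hochberg adjustment over 16947 genes. Every adjusted p comes from this test unless another is named. All 212 LINC genes passed the filter. CPM uses TMM-scaled library sizes, except the marker sums, which use library totals. SD is over 3 libraries, and SE is |log2 fold change| over the root of F. Types came from GENCODE v29, positions from the deposited counts, near-identical copies from BLAST 2.17.0 and promoters from RefSeq. Alternatives were other scalings and filters, DESeq2 1.42.0, limma 3.58.1, a replicate block, fits of the 2 groups compared and each library left out. Named genes are the 8 largest called rises and falls without overlap per comparison, the 10 highest by FPKM, those at the read minimum, the neighbours of these and up to 6 called genes per list and comparison, and exceptions are stated. The test was tried on simulated counts. The LINC genes, lists and this rule were chosen with earlier results of these data known.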

Additional observations from a re-analysis of the deposited data

Results flagged for a closer look

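LINC00707 differed between the vesicle types in direction. Against the same control libraries it fell with STS_apoEV (log2 fold change −1.43, SE 0.15, adjusted p = 4.98e-09) and rose with DDP_apoEV (log2 fold change 0.57, SE 0.14, adjusted p = 0.00299), and STS_apoEV against DDP_apoEV gave a log2 fold change of −2.00 (edgeR adjusted p = 1.47e-12), with all 3 STS_apoEV libraries below all 3 DDP_apoEV libraries.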

How the results depend on the processing

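No named fold change reversed direction. Leaving out each library in turn gave 52 to 65 called LINC genes with STS_apoEV against control (22 to 30 higher, 29 to 36 lower), 19 to 26 with DDP_apoEV (7 to 9 and 12 to 17), 51 to 63 between the vesicle types (26 to 35 and 21 to 28) and 65 to 80 in any group. Between the vesicle types, leaving out DDP_apoEV replicate 2 turned the balance to 26 higher and 27 lower, against 36 and 28 with all libraries. Limma-voom called 65, 25 and 65. On log2(FPKM + 1) and on log2(FPKM + 0.1) limma called 42 with STS_apoEV (18 higher) and 14 with DDP_apoEV (5 higher, 9 lower), and on the second scale 23 were higher with STS_apoEV than with DDP_apoEV. On log2(FPKM + 1) with no filter it called 33 (14 higher, 19 lower), 8 (2 and 6) and 31 (17 and 14) in the 3 comparisons. The cause was not tested. Restricting pairs to LINC genes that overlap no other gene and lie at least 5000 bases away, which leaves fewer pairs, gave 9 same and 1 opposite, 1 and 0, and 6 and 3. Same-numbered replicates did not deviate together (correlations −0.0847 to 0.0547), and a replicate block gave 61, 24 and 61 called LINC genes and 79 in any group. Under the block LINC02454 (adjusted p = 0.0572) and LINC01085 (0.0653) with DDP_apoEV and LINC01424 with STS_apoEV (0.0782) did not pass, and the other named calls did. Of the calls of named genes recomputed under an alternative 852 kept their side of the threshold and 102 lost it. Few reads limit the precision of the genes near the minimum.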
